A study of Mus musculus with 2688 samples.

Results

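Microglia of the mouse cerebellum were compared between 3 weeks and 16 weeks of age. Every well that the labels place in cerebellum at either age was taken, and a well counted as a cell where at least 500 genes had reads and at most 20% of its reads came from mitochondrially encoded genes. This left 350 of the 2402 cells kept in the whole series. They formed 7 of its 51 region samples, a region sample being all kept cells of 1 region from 1 replicate: 3 of 3 weeks with 62, 61 and 44 cells, and 4 of 16 weeks with 47, 45, 47 and 44 cells.

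All mice were of the outbred CD1 strain and are named WT, with no treatment given in the labels, and the groups differ in age and in plate. Single cells had been sorted after perfusion, mechanical dissociation and a Percoll gradient, with antibodies to CD11b, CD45, Ly6C, Ly6G and CD206, and read by full-length SmartSeq2 without molecular identifiers. According to the series design each region and age had 3 to 4 replicate mice, and a mouse could give more than 1 region. The 3-week cerebellar wells share their plate with corpus callosum of 3 weeks and the 16-week wells share theirs with spinal cord of 16 weeks, so age and plate cannot be told apart.

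Microglia are the macrophages that live within the tissue of brain and spinal cord. In the young brain they engulf dying cells and surplus synapses and express genes of lipid handling and lysosomal digestion, and with maturity they settle into a surveying state that depends on signalling through Csf1r and TGF-beta receptors. Cerebellar microglia are known to clear many dying neurons and to keep a transcriptional state of their own among brain regions. Apolipoprotein E, made by astrocytes and by some microglia, carries cholesterol and phospholipids between cells.

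The region samples held 7834240 to 12291481 reads in genes, and single cells 1474 to 575005. Levels below are CPM, the reads of a gene scaled to the TMM library size of its region sample, and differences are on the log2 scale, 16 minus 3 weeks, with their standard errors (SE) from edgeR. As deposited, the wells of plate columns 1 and 2 also carry reads that belong to wells further along the same row, and these were subtracted first. In cerebellum 31 of 32 such wells were kept, and all lie in replicate 1 of 16 weeks, so results that rest on that replicate are also given without them.

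The cells carried the markers of microglia at both ages. All 20 genes of a list of homeostatic microglia genes, such as P2ry12, Tmem119 and Cx3cr1, passed the filter on low counts, and the list summed to 117912 to 126011 CPM at 3 weeks and 115881 to 120845 CPM at 16 weeks. The leukocyte marker Ptprc (CD45) had 592 to 805 CPM at 3 weeks and 720 to 886 CPM at 16 weeks, and Itgam (CD11b) 997 to 1123 and 910 to 1250 CPM. The genes of the Ly6G and Ly6C antigens, whose proteins were stained to keep other myeloid cells apart, were at 0 or 1 read over all cells. Summed markers lay between 0 and 306 CPM at both ages for blood cells other than B cells, for neurons, and for glial and vessel cells. B cell markers summed to 690 to 760 CPM and 543 to 979 CPM, and these were mostly Ighm reads. Markers of cerebellar granule and Purkinje neurons summed to 5.26 to 11.2 CPM at 3 weeks and 17.2 to 60.0 CPM at 16 weeks, and their part in the results was not tested.

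In the comparison of the 7 region samples none of 12314 genes passed the adjusted threshold of 0.05 (0% called; edgeR quasi-likelihood test with Benjamini-Hochberg adjustment, smallest adjusted p 0.109). At an unadjusted p under 0.05 there were 612 genes (4.97%), of which 270 were higher (2.19%) and 342 lower at 16 weeks (2.78%). The 3 and 4 region samples did not overlap for 923 genes (7.5%), 380 of them with higher values (3.09%) and 543 with lower values at 16 weeks (4.41%). The count depended on the fit. With the 4 embryonic cerebellar region samples in the fit, 4 of 13933 genes passed (0.0287%), all of them lower, and DESeq2 on the 7 region samples called 92, 42 higher and 50 lower. The 4 genes were Apoe, the splicing factor gene Cwc22, the protease inhibitor gene Serpine2 and Mrc1, the gene of the mannose receptor CD206. They are described as having fallen in that fit of 11 region samples, and all other genes by their values.

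The promoters of these 4 genes are shown because the genes are the set that fell together in the fit of 11 region samples. Each sequence is the 250 bases before the RefSeq start on GRCm38.p6, written 5' to 3' on the gene's strand, with matches to the core GAGGAA (or TTCCTC on the other strand) in capitals, the core bound by PU.1, a factor that myeloid cells depend on. The windows are chr7:19699189-19699438 on the minus strand for Apoe, chr1:79858666-79858915 on the minus strand for Serpine2, chr2:14229164-14229413 on the plus strand for Mrc1 and chr2:77946357-77946606 on the minus strand for Cwc22.
Apoe: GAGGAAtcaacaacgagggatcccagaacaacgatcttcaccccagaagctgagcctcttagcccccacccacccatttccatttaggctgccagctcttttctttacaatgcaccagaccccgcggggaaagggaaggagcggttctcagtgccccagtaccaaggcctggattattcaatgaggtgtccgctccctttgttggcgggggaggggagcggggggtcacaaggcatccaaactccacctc
Serpine2: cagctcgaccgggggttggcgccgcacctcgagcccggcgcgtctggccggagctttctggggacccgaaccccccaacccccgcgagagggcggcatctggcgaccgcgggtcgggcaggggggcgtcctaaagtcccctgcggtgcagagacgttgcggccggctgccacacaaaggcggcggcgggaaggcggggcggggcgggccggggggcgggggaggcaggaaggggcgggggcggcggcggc
Mrc1: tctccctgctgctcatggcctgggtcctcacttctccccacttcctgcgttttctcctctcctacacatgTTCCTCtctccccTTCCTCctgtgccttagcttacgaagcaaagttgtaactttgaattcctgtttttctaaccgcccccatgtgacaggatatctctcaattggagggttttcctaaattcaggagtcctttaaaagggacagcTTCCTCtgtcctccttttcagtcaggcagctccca
Cwc22: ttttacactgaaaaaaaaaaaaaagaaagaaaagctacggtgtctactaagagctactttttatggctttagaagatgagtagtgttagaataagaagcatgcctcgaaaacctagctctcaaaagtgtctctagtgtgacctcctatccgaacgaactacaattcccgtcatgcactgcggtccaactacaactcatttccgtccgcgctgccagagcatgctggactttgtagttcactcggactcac

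The Mrc1 window held 3 matches to the PU.1 core and the Apoe window 1, while the Serpine2 and Cwc22 windows held 0. Among all 32851 RefSeq promoters of that length, 23.3% held at least 1 match. The MAF half-site TGCTGA and the AP-1 site TGANTCA, searched on both strands, had 0 matches in the 4 windows, against 16.1% and 6.75% of all promoters. The windows differ in base composition, with 78.8% G and C for Serpine2, 57.2% for Apoe, 49.6% for Mrc1 and 42.8% for Cwc22. Apoe has 3 RefSeq starts, of which the printed window belongs to the start at the end of the deposited gene span, and the RefSeq start of Serpine2 lies 2515 bases inside the deposited span.

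Apoe, at chr7:19696109-19699188 on the minus strand of GRCm38, was 8.19-fold lower in microglia of 16 weeks. The 3 samples of 3 weeks had 3731, 4573 and 4493 CPM and the 4 samples of 16 weeks 784, 487, 143 and 671 CPM. No sample of 16 weeks came near the lowest of 3 weeks, and replicate 3 of 16 weeks was the lowest of all. The difference was -3.03 ± 0.45 (SE, n = 3 and 4), with an edgeR adjusted p of 0.218 in the fit of 7 region samples and 0.0312 in the fit of 11, in which Apoe fell by 3.02. The call depended on single samples: the edgeR adjusted p was 0.00519 without replicate 3 of 16 weeks and 0.251 to 0.975 without any other 1 of the 7. Without the wells of plate columns 1 and 2 the difference was -2.57, with an edgeR adjusted p of 0.858.

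The Apoe difference was spread over cells. At 3 weeks 60 of 62, 59 of 61 and 41 of 44 cells had Apoe reads, and at 16 weeks 15 of 47, 20 of 45, 11 of 47 and 13 of 44 cells. The median cell had 1735, 2287 and 861 CPM in the samples of 3 weeks and 0 CPM in each sample of 16 weeks. In cells thinned to 53267 reads the mean share of cells with Apoe reads was 95.8% ± 4.00 (SD, n = 3) at 3 weeks and 31.6% ± 8.87 (SD, n = 4) at 16 weeks. An exact two-sided permutation test over all 35 splits of the 7 region samples gave p = 0.0286 for this share, the smallest the design allows, and 0.0683 after adjustment over 43 genes. The 43 genes include those named for no overlap between ages in these same samples, Apoe among them. For such genes the p-values are no independent support. Cells with high levels were also found at 16 weeks: 21 of 183 cells had at least 1000 CPM, against 109 of 167 at 3 weeks, and the top cell alone gave 18.7 to 39.0% of a 16-week sample's Apoe reads.

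**Figure D1:**
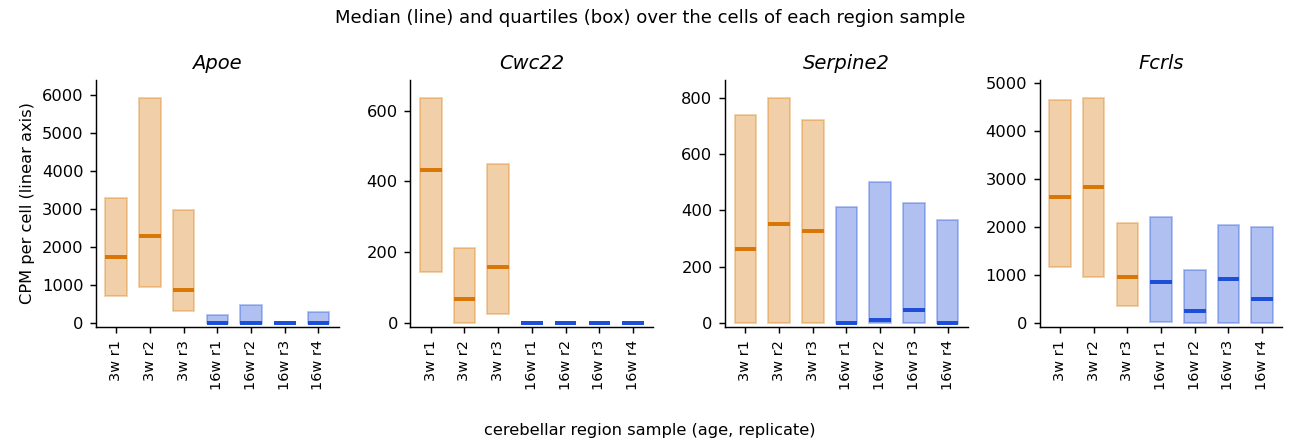
CPM per cell (y axis) of Apoe, Cwc22, Serpine2 and Fcrls in the 7 cerebellar region samples (x axis), with a line at the median cell and a box over the middle quartiles. The median cell lies at 0 CPM of Apoe and of Cwc22 in every sample of 16 weeks, while the boxes of 3 weeks lie higher.

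Apoe was read beside the other genes of lipid transport and synthesis. Of 24 genes of lipoprotein transport listed, 20 passed the filter. Apoe was the only member under an unadjusted p of 0.05 (4.97% of all genes) and the only 1 without overlap (7.5%). The lipoprotein lipase gene Lpl had 231, 358 and 120 CPM at 3 weeks and 9.04, 0.098, 13.5 and 121 CPM at 16 weeks, where replicate 4 reached the lowest sample of 3 weeks. Its difference was -2.73 ± 1.30 with an edgeR adjusted p that rounds to 1. The sterol exporter genes Abca1 and Abcg1 differed by -0.40 and -0.61 with overlapping samples. None of 19 tested genes of cholesterol synthesis was under an unadjusted p of 0.05 (4.97% of all genes). The median difference of that list was -0.51, against 0.00 over all genes tested.

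Cwc22, at chr2:77881159-77946375, encodes a component of the spliceosome that helps load the exon junction complex. Its samples had 448, 180 and 279 CPM at 3 weeks and 39.6, 12.3, 5.87 and 17.2 CPM at 16 weeks, a 16.1-fold lower level, and the groups were well apart. The difference was -4.01 ± 0.61, with an edgeR adjusted p of 0.218 in the 7 region samples and 0.0404 in the 11. Reads were found in 141 of 167 cells at 3 weeks and in 25 of 183 at 16 weeks. Thinned to equal depth, 82.5% ± 14.4 (SD, n = 3) and 10.9% ± 3.82 (SD, n = 4) of cells had reads. The splicing list of 27 genes had 14 higher and 13 lower estimates with a median difference of 0.01. At an unadjusted p under 0.05 Srsf3 and Srsf5 were higher (2.19% of all genes) and Cwc22 alone lower (2.78%). Without overlap 5 members lay above, Srsf3, Srsf4, Srsf5, Srsf6 and Luc7l2 (3.09% of all genes), and Cwc22 below (4.41%). Copies of the segment around Cwc22 are known to vary in number between mouse stocks, and its span overlaps that of Gm13727, so its level is uncertain where reads match more than 1 copy.

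Serpine2, at chr1:79794197-79861180 on the minus strand, encodes protease nexin-1, an inhibitor of thrombin, plasmin and urokinase. Its samples were 535, 586 and 613 CPM at 3 weeks and 335, 295, 252 and 269 CPM at 16 weeks, a 2.01-fold lower level with a narrow spread in both groups. The difference was -1.01 ± 0.16, with an edgeR adjusted p of 0.255 in the 7 region samples and 0.0404 in the 11. The share of cells with reads at equal depth was 72.8% ± 4.44 (SD, n = 3) and 46.7% ± 5.86 (SD, n = 4). Of 9 protease inhibitor genes tested, Serpinf1 was the other member under an unadjusted p of 0.05 (4.97% of all genes). It encodes pigment epithelium-derived factor. It had 115, 211 and 468 CPM at 3 weeks and 81.8 to 97.6 CPM at 16 weeks, an edgeR adjusted p of 0.636. Cst3, which encodes the secreted inhibitor cystatin C, had 28977 to 31141 CPM at 3 weeks and 29832 to 33060 CPM at 16 weeks, with overlapping groups.

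Mrc1, at chr2:14229392-14332057 on the plus strand, encodes CD206, a marker of macrophages at the borders of the brain and an antigen stained for the sort. It had 60.7, 102 and 31.4 CPM at 3 weeks and 0, 0, 1.11 and 0 CPM at 16 weeks. These reads came from few cells: 13 of 167 at 3 weeks and 1 of 183 at 16 weeks. The difference was -7.84 ± 1.51, with an edgeR adjusted p of 0.497 in the 7 region samples and 0.0312 in the 11. Of 16 border macrophage genes 3 passed the filter. The list summed to 232 to 436 CPM at 3 weeks and 123 to 169 CPM at 16 weeks. At 3 weeks 4 of the 16 genes had 0 reads, Pf4, Cd209f, Clec10a and Cbr2. At 16 weeks 8 had 0 reads, these 4 among them. Leaving Mrc1 aside, 6 cells of 3 weeks and 0 cells of 16 weeks had reads of at least 3 of the listed genes. Without the 6 cells the Mrc1 difference was -7.87.

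**Figure D2:**
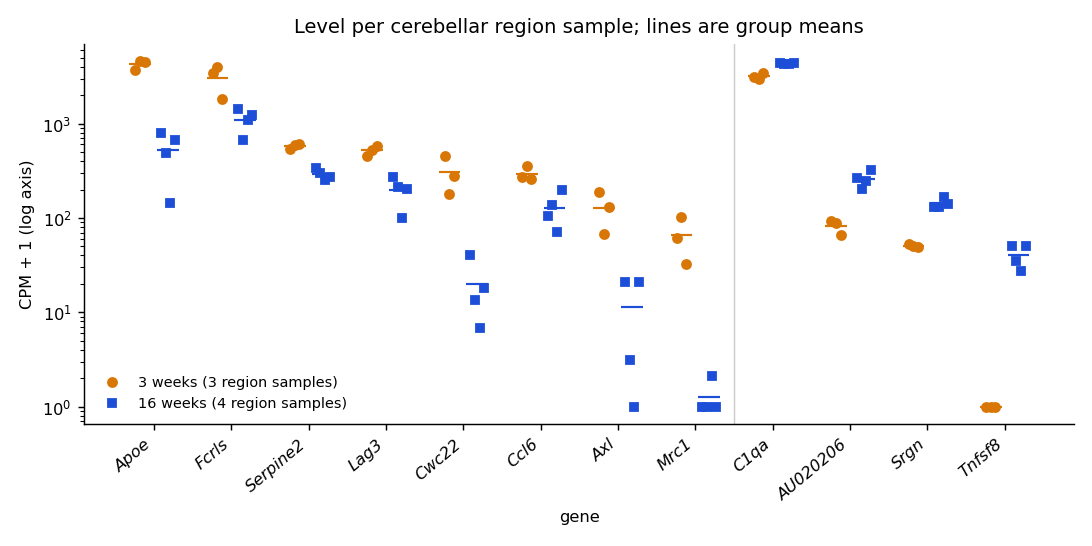
CPM plus 1 on a log axis (y axis) of 12 genes in each region sample, with orange circles for 3 weeks (n = 3), blue squares for 16 weeks (n = 4) and lines at the group means. Apoe, Fcrls, Serpine2, Lag3, Cwc22, Ccl6, Axl and Mrc1 lie lower in every sample of 16 weeks, and C1qa, AU020206, Srgn and Tnfsf8 higher.

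Genes of the phagocytic and disease-associated microglial state lay mostly lower at 16 weeks. Of 20 listed genes 19 passed the filter, and 16 of them had lower and 3 higher estimates. At an unadjusted p under 0.05 there were 8 lower (Apoe, Ank, Ccl6, Cd63, Ctsd, Lgals3, Axl and Spp1) and 0 higher, where 2.78% of all genes were lower. For 7 members every sample of 16 weeks lay below every sample of 3 weeks, where 4.41% of all genes did. The median difference of the list was -1.13, against 0.00 over all genes, and its sum went from 21326 to 26246 CPM at 3 weeks to 14171 to 16308 CPM at 16 weeks. Without replicate 3 of 3 weeks, which kept 44 of 62 wells, the median was -0.67. Without the wells of plate columns 1 and 2, 5 members lay below without overlap.

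Axl, a receptor that binds phosphatidylserine-coated debris through a bridging ligand, had 188, 67.2 and 128 CPM at 3 weeks and 20.1, 2.16, 0 and 19.8 CPM at 16 weeks. Its reads were in 32 of 167 and 9 of 183 cells, a difference of -3.60 ± 1.23 with an edgeR adjusted p of 0.822. The chemokine gene Ccl6 had 256 to 354 CPM at 3 weeks and 69.3 to 198 CPM at 16 weeks, with no overlap. Cd63, a tetraspanin of late endosomes and lysosomes, had 164, 138 and 258 CPM and then 72.7, 62.4, 95.4 and 111 CPM. Ank, a transporter that exports pyrophosphate, had 138, 232 and 184 CPM and then 102, 81.1, 50.7 and 87.6 CPM. These 3 genes lay below in every sample of 16 weeks with differences of -1.22 ± 0.34, -1.13 ± 0.32 and -1.20 ± 0.32, each at an edgeR adjusted p of 0.636.

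The lysosomal protease gene Ctsd differed less, with 9030, 10437 and 12061 CPM at 3 weeks and then 8350, 8146, 9006 and 8398 CPM. Lgals3 and Spp1 are named although their values were seen first. Lgals3, the gene of galectin-3, had 8.83, 5.37 and 68.8 CPM at 3 weeks and 0, 0, 1.44 and 0 CPM at 16 weeks. Spp1, the gene of osteopontin, had 99.4, 3675 and 127 CPM and then 0, 0, 2.88 and 109 CPM, so its groups overlapped. A single cell gave 99.98% of the Spp1 reads of the 3-week sample at 3675 CPM. Gpnmb and Clec7a, genes strongly induced in diseased tissue, were near the floor at both ages: Gpnmb had reads in 1 thinned cell of each age and Clec7a in 2 and 3.

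Per cell, the median number of phagocytic list genes detected at equal depth was 7.5, 7 and 7 in the samples of 3 weeks and 6, 6, 5 and 5 in those of 16 weeks. The groups did not overlap, and the exact two-sided permutation p was 0.0286, or 0.0667 after adjustment over 7 measures. Without the wells of plate columns 1 and 2 the exact permutation p was 0.0571, adjusted 0.1. Apoe is on this list, which was chosen with earlier results of these data known, so these p-values are no independent support. The number of all genes detected at equal depth was lower at 16 weeks too (exact permutation p = 0.0286, adjusted 0.0667). It was 2193 to 2207 at 3 weeks and 1956 to 2065 at 16 weeks. The share of reads from spike-in RNA was 0.227 to 0.262% at 3 weeks and 0.308 to 0.347% at 16 weeks, with the same p. The part of detected genes and spike-in share in the results was not tested.

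**Figure D3:**
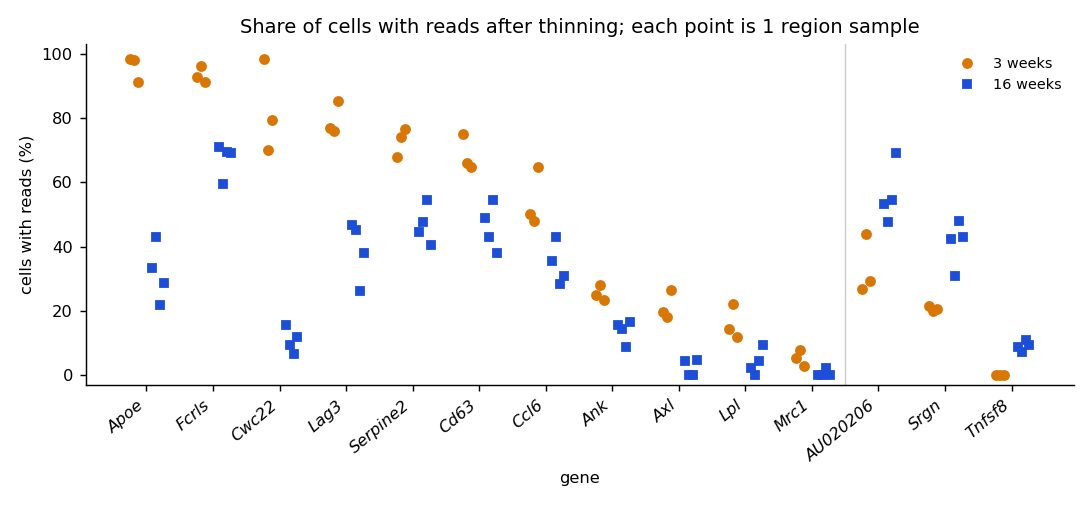
Percent of cells with reads (y axis) of 14 genes (x axis) after thinning each cell to 53267 reads, with a point for each region sample (orange 3 weeks, blue 16 weeks). Apoe goes from a mean of 95.8% to 31.6% and Cwc22 from 82.5% to 10.9%, while AU020206, Srgn and Tnfsf8 are in more cells at 16 weeks.

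The homeostatic genes divided. Fcrls, an Fc receptor-like gene used as a microglial marker, had 3434, 3953 and 1812 CPM at 3 weeks and 1416, 668, 1084 and 1236 CPM at 16 weeks. All samples of 16 weeks were lower, by -1.48 ± 0.29 (edgeR adjusted p 0.497), and the share of cells with reads at equal depth was 93.3% ± 2.45 (SD, n = 3) and 67.3% ± 5.27 (SD, n = 4). Sparc, which encodes a secreted matrix-binding protein, had 6508, 7003 and 6453 CPM and then 4174, 4790, 4417 and 5669 CPM. Csf1r, the receptor for the growth factors CSF1 and IL-34, had 14232 to 15538 CPM and then 12754 to 13778 CPM. Tgfbr1, a TGF-beta receptor subunit, had 1573 to 1912 CPM and then 1356 to 1465 CPM. These 4 genes were the list members that lay lower in every sample of 16 weeks and those lower at an unadjusted p under 0.05, where 4.41% and 2.78% of all genes did so. In the other direction 1 of the 20 members lay above in every sample (3.09% of all genes), and 1 was higher at an unadjusted p under 0.05 (2.19%), the purine receptor gene P2ry13 with a difference of 0.25.

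Over the whole list the median difference was 0.03, with 11 higher and 9 lower estimates among 20. P2ry12 differed by -0.06, Tmem119 by 0.08 and Cx3cr1 by 0.07. Lag3, which encodes an inhibitory receptor best known from T cells, had 454, 518 and 582 CPM at 3 weeks and 270, 209, 99.0 and 201 CPM at 16 weeks. Its difference was -1.41 ± 0.30 (edgeR adjusted p 0.505), and 79.4% ± 5.15 (SD, n = 3) and 39.0% ± 9.40 (SD, n = 4) of cells had reads at equal depth. Of 14 TGF-beta signalling genes tested, 2 were lower and 0 higher at an unadjusted p under 0.05 (2.78% and 2.19% of all genes); the lower members were Tgfbr1 and Itgav, an integrin subunit that activates latent TGF-beta. Itgav had 191, 162 and 152 CPM and then 43.0, 91.7, 46.4 and 77.6 CPM. Without overlap 3 members lay below, Itgav, Tgfbr1 and the signal transducer gene Smad4 (4.41% of all genes), and the ligand gene Tgfb1 lay above by 0.37 (3.09%).

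Complement genes were higher at 16 weeks at the start of the classical pathway. C1qa, at chr4:136895917-136898803 on the minus strand, encodes a chain of C1q, the recognition molecule that tags synapses and debris. It had 3134, 2933 and 3408 CPM at 3 weeks and 4353, 4299, 4247 and 4368 CPM at 16 weeks, a 1.37-fold higher level with a difference of 0.45 ± 0.08 and an edgeR adjusted p of 0.433. The other chains followed in level: C1qb had 3180 to 3725 and then 3741 to 4764 CPM, and C1qc 2033 to 2400 and then 2604 to 2859 CPM. None of the 3 overlapped between ages, and C1qa had reads in every thinned cell of both ages. Of 11 complement genes tested 2 were higher and 1 lower at an unadjusted p under 0.05 (2.19% and 2.78% of all genes), and 3 lay above and 1 below without overlap (3.09% and 4.41%). The lower member was C2, named after its values were seen, with 270 reads at 3 weeks and 0 at 16 weeks.

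Among 7509 genes with at least 20 CPM on average at either age, 619 did not overlap between ages (8.24%), and those with the smallest unadjusted p were of mixed kind. Rn18s-rs5, a ribosomal RNA-related gene at chr17:39846353-39848827, had 7151, 7723 and 9040 CPM at 3 weeks and 13387, 13055, 12719 and 14888 CPM at 16 weeks, a difference of 0.76 ± 0.09 with an edgeR adjusted p of 0.109. It overlaps 2 other genes, and its neighbour Gm26917 lay the other way, with 4953 to 5750 CPM at 3 weeks and 3413 to 4103 CPM at 16 weeks. Tnfsf8, the gene of CD30 ligand at chr4:63831308-63861347, had 0 reads at 3 weeks and 49.0, 33.7, 26.3 and 49.5 CPM at 16 weeks. Set against a floor of 3 reads over the 3-week samples, its reads were at least 425-fold higher (edgeR adjusted p 0.109). Without molecular identifiers this fold counts reads, not molecules. In each sample of 16 weeks 3 cells gave 87.3 to 100% of the Tnfsf8 reads. These reads came from 18 of 183 cells; 0 of 167 cells at 3 weeks allows a share of up to 1.80%.

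Srgn, which encodes the proteoglycan of secretory granules serglycin, had 52.4, 49.6 and 48.0 CPM at 3 weeks and 130, 131, 166 and 139 CPM at 16 weeks. The samples of each age were tight, and the difference was 1.5 ± 0.27 (edgeR adjusted p 0.433). AU020206 had 90.8, 87.8 and 65.2 CPM and then 267, 203, 245 and 317 CPM, a difference of 1.67 ± 0.25 (edgeR adjusted p 0.218). The nuclear long non-coding RNA Malat1 had 3701 to 4187 CPM and then 4884 to 5992 CPM. Tmcc3 had 124 ± 17.1 CPM (SD, n = 3) and then 292 ± 54.7 CPM (SD, n = 4), and Rcbtb2 238 ± 59.0 and then 464 ± 27.6 CPM. Tef, a transcription factor of the circadian output, had 12, 25.4 and 15.3 CPM and then 43.7, 88.5, 105 and 143 CPM. Lsg1, a GTPase of large ribosomal subunit maturation, had 15.7 to 35.5 CPM and then 76.6 to 130 CPM. All of these genes were named by the rule that requires no overlap between ages.

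Further genes named by p lay lower at 16 weeks. Sh3pxd2b, which encodes an adaptor of podosomes, had 55.7, 26 and 6.11 CPM at 3 weeks and 0 in every sample of 16 weeks, where 0 of 183 cells allows a share of up to 1.64%. The actin filament-associated gene Afap1 had 59.0 to 60.5 CPM and then 9.78 to 16.1 CPM. Mms19, of cytosolic iron-sulfur protein assembly, had 192 to 281 CPM and then 92.5 to 136 CPM. The lysosomal alpha-mannosidase gene Man2b1 had 2005 to 2450 CPM and then 1474 to 1768 CPM. Zfp449 was the reverse, with 0.107 to 0.288 CPM and then 1.24 to 60.2 CPM. Its reads were in 4 of 167 cells at 3 weeks and 8 of 183 at 16 weeks. In each sample of 16 weeks 1 cell gave 67.5 to 100% of them. Gm10801 and Gm10800, near-identical repeat genes on chromosome 2 between which reads cannot be assigned with certainty, had 832 to 2155 and 2355 to 5871 CPM and then 89.4 to 424 and 224 to 1208 CPM. Their median cell had 121 to 163 and 271 to 288 CPM at 3 weeks, and then 71.5 to 109 and 188 to 261 CPM.

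Other gene groups were counted in the same way. Among 80 cytosolic ribosomal protein genes Rps9 alone was under an unadjusted p of 0.05 (4.97% of all genes). In every sample of 16 weeks 11 of them lay above, where 3.09% of all genes did. Their median difference was 0.25 and their sum 3307 to 3706 CPM and then 3872 to 4179 CPM. The 79 nuclear genes of oxidative phosphorylation had the same median, 0.25. At an unadjusted p under 0.05, 2 were higher and 1 lower (2.19% and 2.78% of all genes). Without overlap 4 lay above and 1 below (3.09% and 4.41%). Among them Sdha, a subunit of succinate dehydrogenase, had 221 to 264 CPM and then 333 to 438 CPM. Of 32 lysosome genes 3 were higher and 4 lower at an unadjusted p under 0.05 (2.19% and 2.78% of all genes). Without overlap 4 lay above and 4 below (3.09% and 4.41%). Their median difference was -0.08. Of 20 type I interferon genes 3 lay below without overlap (4.41% of all genes), and 1 was lower at an unadjusted p under 0.05 (2.78%). The latter was Ifitm3, with 61.7, 8.54 and 10.8 CPM and then 1.22 to 3.86 CPM.

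Receptors and cytokines also went both ways. The toll-like receptor gene Tlr2 had 205 to 304 CPM at 3 weeks and 359 to 515 CPM at 16 weeks. P2ry6, a receptor for uridine nucleotides that drives uptake of debris, had 525 to 738 CPM and then 361 to 502 CPM. Tnfsf13b, which encodes the B cell survival factor BAFF, had 25.4, 6.33 and 7.51 CPM and then 55.8 to 95.6 CPM. Cd74, the invariant chain of MHC class II, had 194, 37.8 and 44.1 CPM and then 3.66 to 23.8 CPM. It was the only 1 of 6 tested class II genes lower at an unadjusted p under 0.05 (2.78% of all genes) or without overlap (7.5%). Of the 6, 4 had higher estimates, and the median difference was 0.28. The groups did not overlap for any of the genes Tlr2, P2ry6, Tnfsf13b and Cd74, and their edgeR adjusted p lay between 0.585 and 0.666. Progranulin (Grn) had 2596 to 3046 CPM and then 2226 to 2278 CPM. Of 21 microglial and macrophage transcription factor genes Mef2a alone was under an unadjusted p of 0.05 (4.97% of all genes), higher by 0.49. The PU.1 gene Spi1 differed by -0.09.

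**Figure D4:**
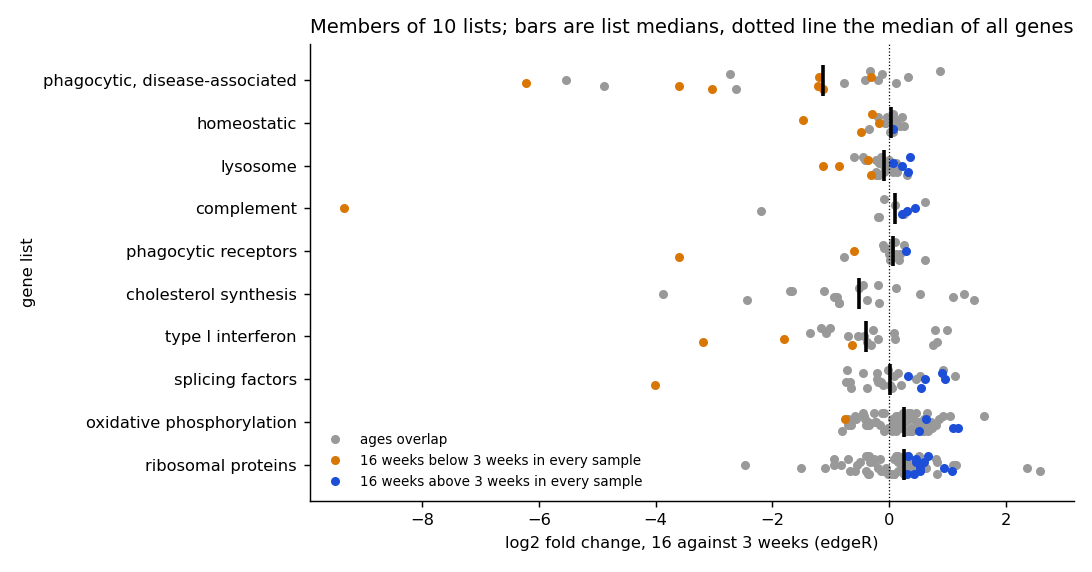
Difference on the log2 scale, 16 minus 3 weeks (x axis), of each tested member of 10 gene lists, with black bars at the list medians and a dotted line at the median of all genes; orange and blue mark members below or above in every sample of 16 weeks. The phagocytic list has its median at -1.13 and the homeostatic list at 0.03.

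The cerebellar age difference was then set against that of cortex, hippocampus, corpus callosum and spinal cord in a fit of the 35 region samples of 10 groups. There, levels were scaled over all 35 samples, so they differ slightly from those above. Against the mean of the 4 regions 1 of 19580 genes differed at an edgeR adjusted p of at most 0.05 (0.00511%), the repeat gene Gm10801 (-3.63 ± 0.57, edgeR adjusted p 0.00473). Its call was lost without replicate 2 or 3 of 3 weeks or replicate 1 of 16 weeks (edgeR adjusted p 0.0704, 0.0775 and 0.0651). The median cerebellar cell differed far less than the sums, with 121 to 163 CPM at 3 weeks and 71.5 to 109 CPM at 16 weeks. Single cells reached 107208 CPM at 3 weeks and 104544 CPM at 16 weeks. In single regions 3 genes differed from cortex (0.0153%), 11 from hippocampus (0.0562%), 7 from corpus callosum (0.0358%) and 5 from spinal cord (0.0255%).

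None of the 4 genes that passed for age in the edgeR fit with the embryonic cerebellar samples passed in these tests. For age in cerebellum, the fit used here gave edgeR adjusted p of 0.333 for Apoe and 0.189 for Cwc22. It gave 0.448 for both Serpine2 and Mrc1. Apoe went from 4093 to 504 CPM on average in cerebellum, from 2137 to 600 in cortex, 2770 to 1015 in hippocampus, 2974 to 673 in corpus callosum and 3016 to 509 in spinal cord. The cerebellar difference was beyond that of the mean of the others by -1.02 ± 0.78, with an edgeR adjusted p of 0.989. Cwc22 went from 291 to 18.2 CPM in cerebellum and was lower at 16 weeks in the other 4 regions too, to between 8.83 and 36.5 CPM (-0.53 ± 0.92). Serpine2 had 555 and 278 CPM in cerebellum, 549 and 274 in corpus callosum, 519 and 288 in spinal cord, and 339 and 350 in cortex; against cortex the difference was -1.04 ± 0.40, with an edgeR adjusted p of 0.392. Mrc1 had 62.0 CPM in cerebellum at 3 weeks and at most 18.4 CPM in the other regions (-7.51 ± 2.93, edgeR adjusted p 0.444).

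Cst3 was among the genes that did differ. It went from 28626 to 30264 CPM in cerebellum and from 58103 to 34976 CPM in cortex, a difference of 0.81 ± 0.13 (edgeR adjusted p 0.00454). It differed from hippocampus and corpus callosum as well, but not from spinal cord (0.0025 ± 0.13), where it went from 33740 to 35610 CPM. C1qa went from 3032 to 4165 CPM in cerebellum and from 4685 to 3819 CPM in cortex (0.75 ± 0.13, edgeR adjusted p 0.00997). C1qc likewise went from 2134 to 2667 and from 3268 to 2360 CPM. Spinal cord moved as cerebellum did, with C1qa at 2935 and then 3728 CPM. Against it C1qa and C1qc each differed by 0.11 ± 0.13 (edgeR adjusted p 0.976 and 0.984). For both C1q chains cerebellum and cortex were further apart at 3 weeks than at 16 weeks. Against hippocampus the mitochondrially encoded mt-Nd1, mt-Nd5, mt-Co1, mt-Cytb and mt-Rnr2 differed by -1.59 to -1.16. mt-Nd1 had 2741 and 2259 CPM in cerebellum, and 1287 and 3199 CPM in hippocampus. Rhob, Cotl1 and Arhgdia, genes of actin regulation, and the lysosomal gene Psap differed from hippocampus by 0.81 to 1.42, and in hippocampus they were lower at 16 weeks. Against spinal cord these mitochondrial, actin and lysosomal genes differed by -0.40 to 0.09, and none was called.

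Slc34a2, a sodium-phosphate cotransporter gene, had 2475 and 2394 CPM in cerebellum, 1406 and 3079 CPM in corpus callosum and 1412 and 3283 CPM in spinal cord. The differences were -1.18 ± 0.24 (edgeR adjusted p 0.0486) and -1.27 ± 0.24 (edgeR adjusted p 0.0233). Rn18s-rs5 differed from hippocampus by 0.65 ± 0.11 and from corpus callosum by 0.70 ± 0.11. The satellite-type repeat genes Gm10717, Gm21738 and Gm10800 differed from corpus callosum and spinal cord by -4.88 to -5.16, lower at 16 weeks in cerebellum and higher at 16 weeks in the other 2 regions.

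Fitted alone in the same way with edgeR, 7 genes passed in cortex (0.0596%), 11 in hippocampus (0.0919%), 6 in spinal cord (0.05%) and 0 of 12060 in corpus callosum (0%). In corpus callosum 586 genes were under an unadjusted p of 0.05, and no other tool was run there. Apoe was among the genes called in cortex (-1.83, edgeR adjusted p 0.0255). It was not called in cerebellum or any other region fitted alone. Srgn, called in cortex and hippocampus, went there from 16.3 CPM at 3 weeks to 155 and 190 CPM, where cerebellum had 48.0 and 136 CPM; against hippocampus the cerebellar difference was smaller by -2.04 ± 0.44 (edgeR adjusted p 0.0727). Lag3, called in the same regions, differed by -1.40 in cerebellum, -1.15 in cortex and -1.58 in hippocampus. Sgk1, a kinase gene induced by glucocorticoids and called in spinal cord, had 1147, 1188 and 1634 CPM in cerebellum at 3 weeks and 672, 380, 733 and 320 CPM at 16 weeks. Fcrls, called in spinal cord, differed by -2.31 there and by -1.47 in cerebellum. Each region of an age lies on a single plate, so these differences of region and age cannot be told apart from plate.

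**Figure D5:**
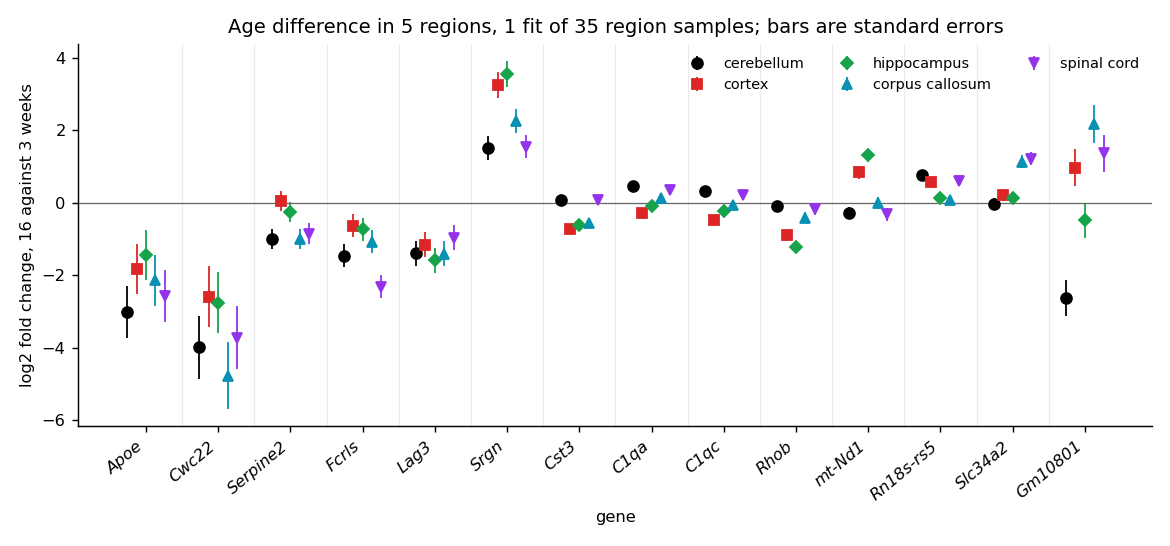
Age difference on the log2 scale, 16 minus 3 weeks, with its SE (y axis), of 14 genes in cerebellum, cortex, hippocampus, corpus callosum and spinal cord, from the fit of 35 region samples. Apoe and Cwc22 lie below 0 in all 5 regions, while C1qa is at 0.46 in cerebellum, 0.35 in spinal cord and -0.29 in cortex.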

How the data were processed

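Per the labels, single sorted cells were read by SmartSeq2 in 384-well plates, which the protocol neither strands nor tags with molecular identifiers. The authors deposited raw counts of reads per gene and well. The submitters' processing notes name the build GRCm38 and the tools featureCounts 1.6.2 and STAR 2.5.2b. Per the file headers the deposited table also gives each gene's position and its exon Length in bases, an annotation value that entered no test. The table holds 48587 gene rows and 92 spike-in rows. In columns 1 and 2 of each plate a deposited well also holds the counts of wells whose names start the same; subtracting these left 0 of 2095843 checked values below 0, where the wells of the next row left 29.19% below 0.

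Wells with at least 500 genes and at most 20% mitochondrial counts were kept. Of 380 cerebellar wells 29 had too few genes and 1 too high a mitochondrial share. Replicate 3 of 3 weeks kept 44 of 62 wells (71.0%), and every other cerebellar sample 93.8 to 97.9%. No doublet caller was run, since a well holds a sorted cell. The 8 blank wells of both plates held 2272 to 20404 reads; Apoe had at most 14 of these in a blank, Serpine2 33, Mrc1 9 and C1qa 72, and Cwc22, Lag3 and Tnfsf8 had 0. The labels do not tie replicate numbers to mice, so p-values measure the spread between these region samples, and intervals and floors cover counting error only.

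Counts were summed per region sample and tested with edgeR 4.0.16 in R 4.3.3 (TMM, filterByExpr by group, robust quasi-likelihood F test, two-sided, Benjamini-Hochberg over all genes tested, threshold 0.05). Alternatives used DESeq2 1.42.0, limma 3.58.1 on the log of the mean level of cells, other scalings and filters, and each replicate left out. Measures per sample and shares of cells were compared by exact permutation tests over 35 splits, after thinning to 53267 reads, the 10th percentile; 140 of 167 and 175 of 183 cells were deep enough. Scripts ran on Python 3.11.15 and were tested on simulated data.

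The cells, genes and lists were chosen with earlier results of these data known. Genes were named by rule: those past the threshold; up to 24 by unadjusted p with at least 20 CPM at either age and no overlap between ages; up to 4 per list; the sort markers; genes past the threshold in the comparison with other regions or in another region alone. Of 63 genes recomputed or named, the spans of 27 overlap another gene's span, 17 of them on the other strand. A span ran from the lowest start to the highest end listed, so a gene listed at distant places got too long a span. Fth1 was counted as overlapping Man2b1, Lpl and Tnfsf13b in this way. Reads of a pair cannot be told apart where exons overlap, and overlap of exons was not examined.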

Additional observations from a re-analysis of the deposited data

Results flagged for a closer look

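In 8 of 74 groups of 4 samples of 16 weeks the highest sample stood apart from the other 3 by more than Dixon's 95% critical value; chance alone marks about 1 in 20 groups. Mrc1 had 1.11 CPM in replicate 3 and 0 in the others, and Lgals3 1.44 CPM in replicate 3 and 0 in the others; each was in 2.17% of that sample's thinned cells, which is 1 cell. Spp1 had 109 CPM and Lpl 121 CPM in replicate 4. Mms19 stood at 136 CPM in replicate 4 and Man2b1 at 1768 CPM in replicate 2.

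The age difference of cerebellum differed from that of other regions in 27 tests, over 18 genes (edgeR interaction tests, adjusted p at most 0.05). Against the mean of 4 regions this was Gm10801 (-3.63). Against cortex it was Cst3 (0.81), C1qc (0.79) and C1qa (0.75), all with a higher age difference in cerebellum.

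Against hippocampus the mitochondrial genes were lower in their age difference: mt-Nd1 (-1.59), mt-Rnr2 (-1.40), mt-Nd5 (-1.50), mt-Co1 (-1.27) and mt-Cytb (-1.16). Higher in theirs were Cotl1 (1.42), Arhgdia (1.42), Rhob (1.14), Psap (0.81), Cst3 (0.69) and Rn18s-rs5 (0.65). The median mitochondrial share of cerebellar cells was 1.57% at 3 weeks and 1.75% at 16 weeks (exact permutation p = 0.457).

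Against corpus callosum the repeat genes Gm10800 (-5.16), Gm21738 (-5.03), Gm10717 (-4.88) and Gm10801 (-4.79) differed, as did Slc34a2 (-1.18), Rn18s-rs5 (0.70) and Cst3 (0.65). Against spinal cord they were Gm10800 (-5.11), Gm10717 (-5.03), Gm21738 (-4.95), Gm10801 (-3.99) and Slc34a2 (-1.27). In cerebellum Gm10801 had reads in nearly every cell at both ages, with 3 cells giving 36.3 to 57.4% of its reads in the samples of 3 weeks and 16.1 to 75.6% in those of 16 weeks.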

How the results depend on the processing

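No direction reversed among 1100 values of 50 genes under 22 alternatives of the age comparison. Genes named for no overlap between ages in these same samples could hardly reverse, so for them this count is no measure of robustness. The count of genes past the threshold was 0 in the edgeR test of 7 region samples, and other settings gave more: 4 with the embryonic samples, 1 in the fit of 35 samples (Rn18s-rs5), 15 by limma on cell means (9 higher, 6 lower), 41 with no filter on low counts (13 higher, 28 lower) and 92 by DESeq2 (42 higher, 50 lower). Leaving out each replicate gave 0 to 1. For cerebellum against the mean of 4 regions the count of 1 became 434 by DESeq2 (120 higher, 314 lower), 31 with no filter (7 higher, 24 lower) and 0 to 5 with a replicate left out. Gm10801 lost its call in the counts as deposited (adjusted p 0.254). In those counts cortex had 7 genes in place of 3, corpus callosum 1 in place of 7 and spinal cord 0 in place of 5. The cause was not tested.

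Same-numbered cerebellar samples of the 2 ages, which are different mice, correlated at 0.026, -0.026 and -0.012 over 6842 genes, none best with its own number. Within an age, cerebellum and the other 4 regions correlated at 0.0023 to 0.0742 in 28 same-numbered pairs (-0.057 to 0.0362 in 72 others; 6792 genes), and 24 of 28 were best with their own number. No pair was over 0.1, and the numbers were not taken as a pairing. That cutoff cannot decide whether same-numbered samples share a mouse, because the labels name no pair known to share one. The within-age values, positive in all 28 same-numbered pairs, are a hint of a pairing from the data, not the design. The main tests between regions took the region samples as independent, although a mouse could give several regions. With the number as a replicate block the counts were 0 for age, 10 against the mean of 4 regions (3 higher, 7 lower), 7 against cortex, 14 against hippocampus, 7 against corpus callosum and 6 against spinal cord.

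The difference in median reads per cell, -1141, changed sign in the counts as deposited (176911), without columns 1 and 2 (16933.5) and over the left-out replicates (-16872 to 15293.5). Detected genes per cell changed sign in the counts as deposited, where the wells of replicate 1 of 16 weeks hold reads of other wells: 862 in all and 491 at equal depth. In alternatives chosen after seeing the data, 14 to 17 phagocytic list members had lower estimates in every setting of the age comparison, and 5 to 10 lay below without overlap. Genes read in a few cells per sample, such as Mrc1, Tnfsf8 and Axl, are limited by the number of cells.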
